A study of Schmidtea mediterranea with 5 samples.

Results

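Of 23946 cells from planarian wound fragments, 126 carried at least 3 of 5 transcripts that had been put forward as marks of intestine-like cells. The cells, called the selected cells below, were chosen by measured values: a barcode qualified with 200 to 2500 genes and 1000 or more unique molecular identifiers (UMIs, each counted once per captured RNA molecule), and was selected with 2 or more UMIs of each of at least 3 of the contigs dd_Smed_v6_75_0, dd_Smed_v6_115_0, dd_Smed_v6_194_0, dd_Smed_v6_636_0 and dd_Smed_v6_1694_0. These transcripts of the assembled transcriptome are shortened to dd_75, dd_115, dd_194, dd_636 and dd_1694. The selected cells made up 0.526% of the qualifying cells (95% exact binomial interval 0.439% to 0.626%).

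The study sequenced single cells of the flatworm Schmidtea mediterranea, clonal strain CIW4, from tissue behind the pharynx after amputation. There were 5 droplet libraries, each from pooled animals: 0 h post amputation (hpa), 6 hpa at anterior-facing wounds, 18 hpa at anterior-facing wounds in 2 replicates, and 18 hpa at posterior-facing wounds. The second 18 hpa anterior-facing replicate came from animals given 4 feedings of double-stranded RNA against unc-22, a control RNAi, and the other libraries had no RNAi. All came from the gate of cells that are insensitive to irradiation, so dividing stem cells were largely outside it. Cells of the 6 hpa library were sorted as calcein medium and high and those of the other libraries as propidium iodide low, so time and sort cannot be told apart at 6 hpa. The labels give 18 hpa, and the study's methods give 16 hpa for the same libraries.

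The planarian intestine is a blind, branched gut. Its absorptive phagocytes take up food particles and digest them inside the cell, in lysosome-like vacuoles, and store lipid and glycogen, while a second kind of cell, the goblet cell, secretes. Lysosomal hydrolases, fatty acid handling and nutrient transporters are therefore the functions for which gut cells are known.

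The selected cells numbered 22 of 5166 at 0 hpa (0.426%), 34 of 3052 at 6 hpa (1.11%), 26 of 4079 and 21 of 6935 in the first and second 18 hpa anterior-facing libraries (0.637% and 0.303%), and 23 of 4714 at the posterior-facing wound (0.488%). The 6 hpa share had an exact 95% interval of 0.773% to 1.55%, and the intervals of the other libraries lay between 0.188% and 0.933%. These shares depend on the upper limit on genes, which left out further barcodes that met the rule on contigs. Such barcodes numbered 9 at 0 hpa and 0 at 6 hpa. At 18 hpa there were 34 and 11 in the first and second anterior-facing libraries and 33 at the posterior-facing wound. The part of this limit in the higher share at 6 hpa was not tested. Selected cells held a median of 3136 to 5465 UMIs, against 1960.5 to 4078 in all other qualifying cells of the same libraries. No cell barcode was shared by selected cells of any 2 libraries. Barcodes with 10 to 100 UMIs were taken as empty droplets and give the level of free RNA. At 6 hpa this window held 10001 barcodes, while 65580 others had 100 to 300 UMIs, so the empty droplets of that library were only partly covered.

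The label did not hold for every marker. The given markers are themselves contigs of the rule, so their presence in selected cells is no test of the label. dd_75 had 2 or more UMIs in 84 selected cells, against 0.378% of other cells. dd_115 was nearly absent, with 14 UMIs in all 126 cells and 2 or more UMIs in 3 of them, while 55 cells outside the selection reached that level. dd_1694 had 2 or more UMIs in 66 selected cells but also in 1382 other cells. Nearly all selected cells had dd_194, which passed in 124 of them, and dd_636, which passed in 123. These contigs alone did not select a cell, and 107 cells with only dd_194 and dd_636 were left out. A further contig was needed, which was mostly dd_75 or dd_1694. With 1 of the 3 given markers close to 0, no cell type name is used here.

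The levels of the rule's contigs are a description, since they chose the cells, and are given as CPM, the UMIs of a contig per 1000000 UMIs of the summed cells. In selected cells dd_194 stood at 13691 CPM at 0 hpa, 20660 at 6 hpa, 6835 and 7591 in the first and second 18 hpa anterior-facing libraries and 10053 at the posterior-facing wound. The empty-droplet level of dd_194 was 286, 370, 59.7, 29.2 and 85.3 CPM in the same order. The 6 hpa library was highest and the first 18 hpa anterior-facing library lowest, and every library lay far above its empty droplets.

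dd_75 was at 2649, 3059, 1742, 2104 and 1154 CPM in that order of libraries, with 122, 82.6, 26.7, 12.3 and 46.8 CPM in empty droplets. dd_636 was at 7296, 12430, 6463, 8375 and 5379 CPM, with 210, 301, 178, 216 and 220 CPM in empty droplets. dd_1694 was at 309, 129, 417, 562 and 324 CPM, with 43.2, 17.0, 63.5, 50.3 and 75.7 CPM in empty droplets. Both dd_75 and dd_636 peaked at 6 hpa, where dd_1694 was lowest. dd_115 reached 70.8 CPM at 6 hpa from 11 UMIs and was at 0 UMIs in the second 18 hpa anterior-facing library and at the posterior-facing wound, where 0 counts allow up to 39.2 and 28.6 CPM.

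**Figure D1:**
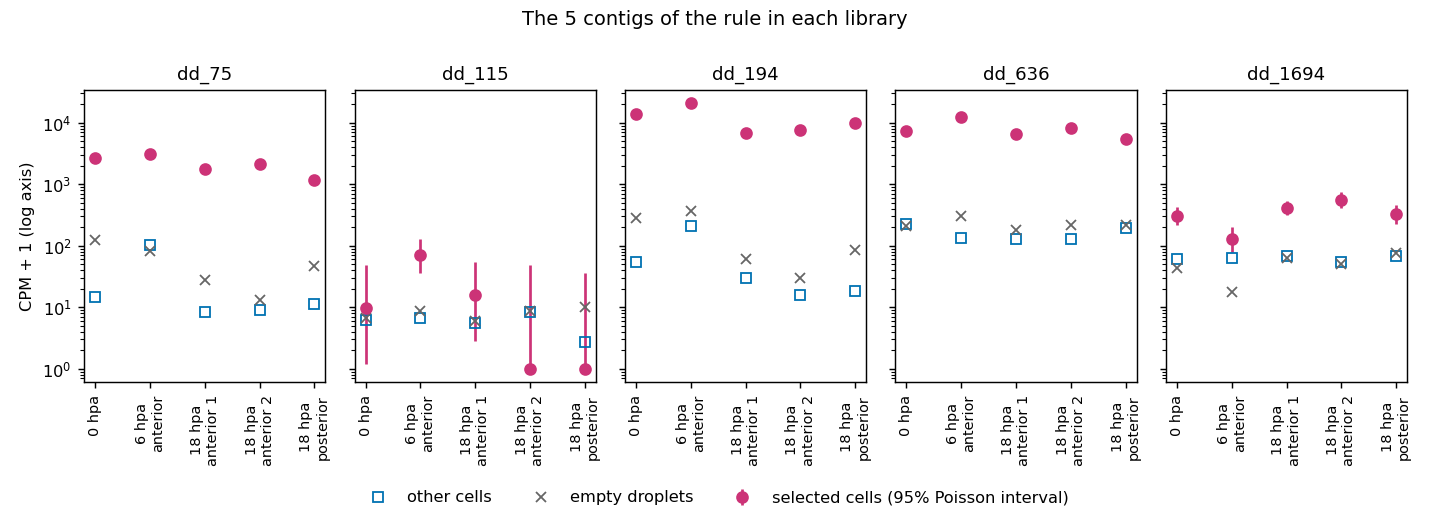
CPM plus 1 on a log axis for each of the 5 contigs of the rule, with 1 column per library. Filled circles are the summed selected cells with exact 95% Poisson intervals, squares the other qualifying cells and crosses the empty droplets. dd_75, dd_194 and dd_636 stand above both backgrounds in all 5 libraries, and dd_115 overlaps them in 4 of 5, the exception being 6 hpa at 70.8 CPM.

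The selected cells are described by the presence of dd_75, which is itself a contig of the rule, so the split below is no test. The commonest combination was dd_75, dd_194 and dd_636, in 59 cells. Next came dd_194, dd_636 and dd_1694 without dd_75, in 41 cells. In the 84 cells with 2 or more UMIs of dd_75, the 5 contigs together took a median of 3.37% of a cell's UMIs (range 0.238% to 14.6%). In the 42 cells without it they took 0.413% (range 0.156% to 3.55%), although those cells were deeper, with a median of 6370 against 3177 UMIs. The median cell with dd_75 had 47 UMIs of dd_194 and that without had 2, the smallest number that counts. The cells without dd_75 therefore sat at the edge of the rule. The ranges with and without dd_75 overlapped.

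Cells near the threshold had weak signals on both sides. In 49 of the 126 cells the third-highest contig had exactly 2 UMIs, and their median rule level was 0.552% of UMIs. In 201 qualifying cells just outside, the third-highest contig had 1 UMI and the median was 0.333%. Among 568 cells with only 2 of the contigs, 370 had dd_636 and dd_1694 while 75 had dd_75 and dd_194, and 19 of the 568 reached the median level of the cells with dd_75.

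The dd_75 split was uneven across libraries. At 6 hpa 32 of 34 selected cells had dd_75 (94.1%, exact 95% interval 80.3% to 99.3%). In the other libraries the numbers were 13 of 22, 14 of 26, 13 of 21 and 12 of 23, or 52.2% to 61.9%. Any level averaged over selected cells at 6 hpa thus rests almost wholly on cells with dd_75, while elsewhere it mixes cells with and without. The part of this mixture in the differences between time points was not tested, and values in cells with dd_75 alone are given beside several of the named contigs.

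**Figure D2:**
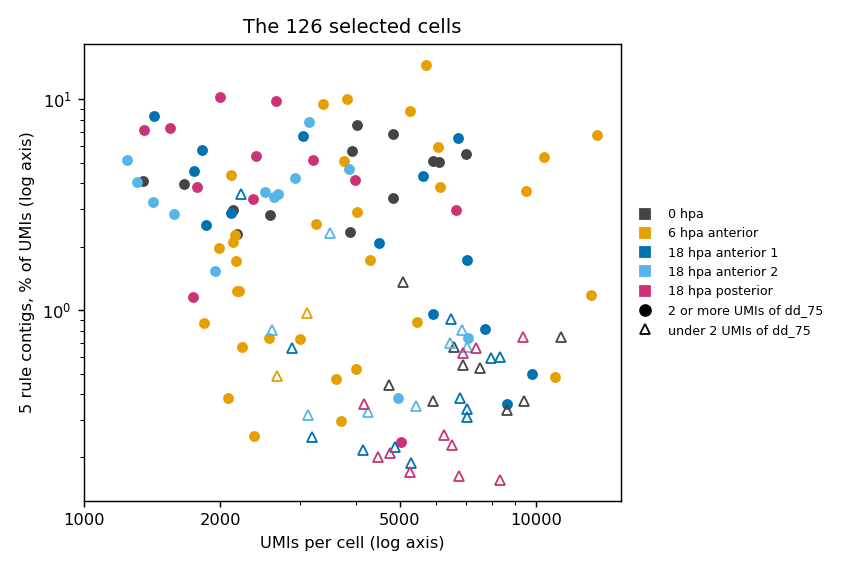
Share of each selected cell's UMIs taken by the 5 rule contigs against its UMIs, both on log axes, coloured by library. Filled circles are the 84 cells with 2 or more UMIs of dd_75 and open triangles the 42 without. The triangles gather at low shares and high UMI numbers, with medians of 0.413% and 6370 UMIs.

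The next comparison asked which other transcripts marked the selected cells. UMIs were summed per library over selected and over all other cells and compared with the library as a block over 5 libraries. Of 11258 contigs tested, 1366 were higher in selected cells (12.1%) and 3339 lower (29.7%) at an edgeR Benjamini-Hochberg adjusted p under 0.05. Among the lower contigs 1003 had no UMI in any selected cell. The median log2 fold change over all contigs tested was -0.70, and directions are relative to the trimmed-mean scaling.

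The leading contigs formed a group that was abundant in selected cells and nearly silent in others. The 20 with the highest fold, among those higher in 5 of 5 libraries with 20 or more UMIs in each, had log2 fold changes of 4.95 to 7.35. Together they took a median of 6.43% of the UMIs of cells with dd_75 and 0.386% of cells without it, with overlap, since cells with dd_75 held as little as 0.173% and cells without it reached 2.11%. Most of these contigs carry no annotation in the sources used here, so they are named by number.

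dd_500 had the highest fold. Its level was 1243 CPM at 0 hpa, 1359 at 6 hpa, 759 and 1398 in the 18 hpa anterior-facing libraries and 725 at the posterior-facing wound. Other cells had 8.38, 26.4, 4.38, 3.95 and 5.50 CPM, and empty droplets had 43.2, 39.3, 11.4, 8.19 and 15.1 CPM. The sums of selected and other cells did not overlap over the 5 libraries, although 79 of the 126 selected cells had a UMI of it, and the log2 fold change was 7.35 ± 0.30 (SE, 5 libraries; edgeR adjusted p = 1.88e-127).

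dd_20 was the most abundant of the group, at 16194, 14368, 8681, 3724 and 7936 CPM in the same order of libraries. Its empty-droplet level was also the highest of the 20, at 764, 504, 219, 86.0 and 443 CPM. The fold change on the log2 scale was 6.83 ± 0.32 (SE; edgeR adjusted p = 1.42e-98). dd_20 had a UMI in 114 of 126 cells, including 31 of the 42 without dd_75.

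dd_44 stood at 9019, 5957, 5636, 6598 and 2566 CPM, against 263, 187, 107, 36.3 and 121 CPM in empty droplets. dd_48 stood at 8736, 4495, 3767, 4246 and 2613 CPM, against 392, 341, 54.6, 33.9 and 99.1 CPM. dd_267 stood at 2049, 1385, 484, 967 and 963 CPM, against 120, 65.5, 11.4, 5.85 and 25.5 CPM. All 3 were highest at 0 hpa in selected cells and in empty droplets. dd_267 was found only in cells with dd_75, in 53 of 84, and dd_48 in 64 of 84 with and 2 of 42 without.

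**Figure D3:**
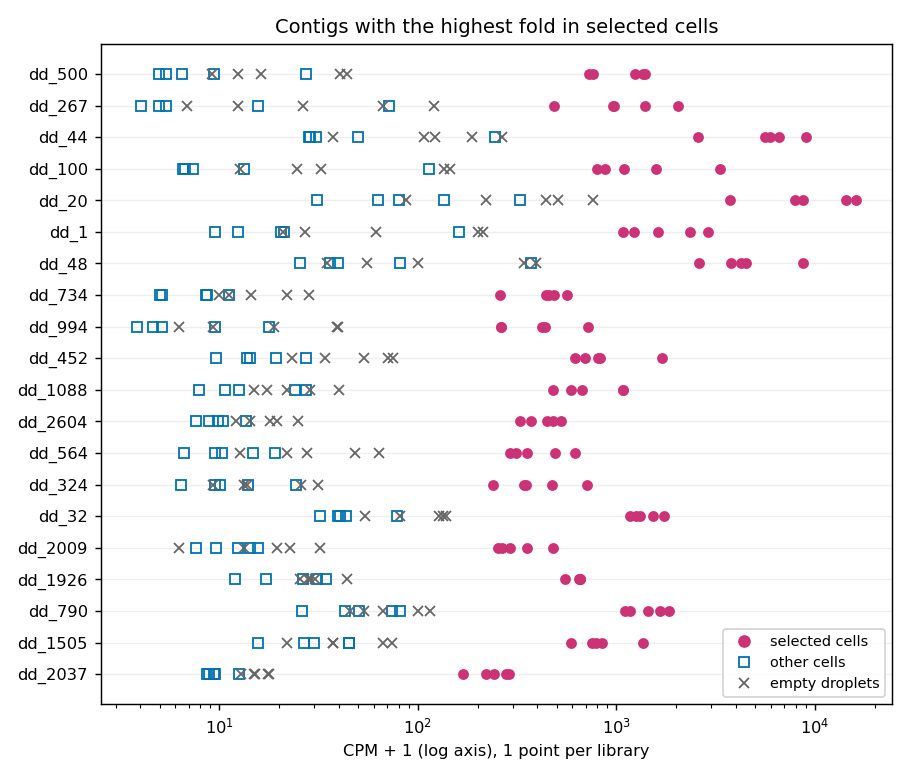
CPM plus 1 on a log axis for the 20 contigs with the highest fold, 1 point per library. Circles are selected cells, squares other cells and crosses empty droplets. For each of the 20 contigs the circles of all 5 libraries lie to the right of every square and cross, as for dd_500 with 725 to 1398 CPM against at most 43.2. The contigs were picked as the highest folds among those higher in all 5 libraries, so the gap follows in part from that choice.

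Among the 20, dd_790 and dd_1926 were about as high without dd_75 as with it. dd_790 was at 1843, 1108, 1176, 1659 and 1440 CPM and dd_1926 at 652, 650, 551, 653 and 658 CPM in the 5 libraries. dd_790 had 1250.4 CPM in cells with dd_75 and 1607 in cells without, and dd_1926 had 618 and 646 CPM. The level of dd_1926 thus ran only from 551 to 658 CPM. The empty-droplet levels were at most 114 CPM for dd_790 and 43.2 for dd_1926. The log2 fold changes were 5.02 ± 0.27 for dd_790 and 5.06 ± 0.27 for dd_1926 (SE; edgeR adjusted p = 2.54e-73 and 2.47e-78). dd_1505 and dd_1088 were found in 63 and 59 cells with dd_75 and in 33 and 31 of the 42 without, but at higher levels with it, at 1150.4 against 601 CPM and 1056 against 456 CPM.

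The comparison was repeated with the selected cells with and without dd_75 taken separately, a split chosen after its values were seen. With dd_75 there were 1179 contigs higher than in other cells (10.6% of those tested), among them 20 of the 20. Without dd_75 there were 524 (4.83%), among them 14 of the 20. The 20 were picked in all selected cells together, 84 of 126 of which had dd_75, so these tallies are a description. The contigs higher in both comparisons numbered 309, which is 26.2% of the first set and 59.0% of the second.

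**Figure D4:**
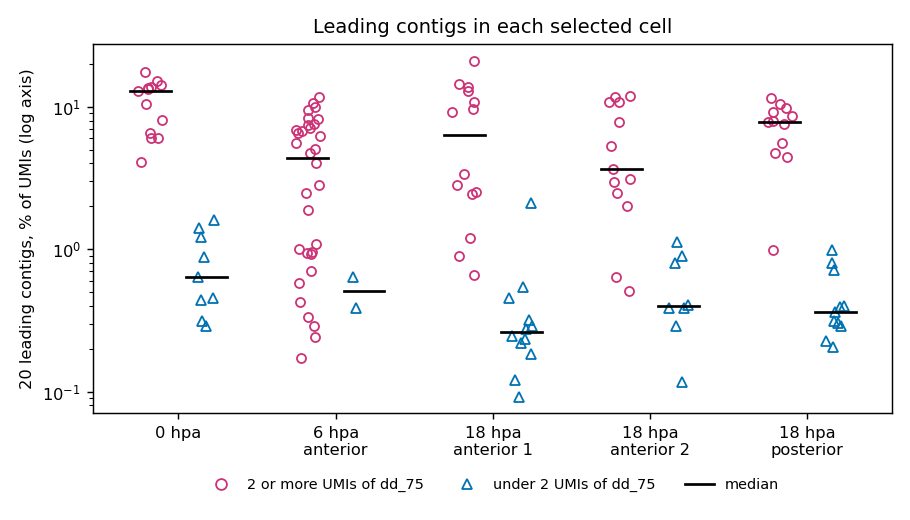
Share of each selected cell's UMIs taken by the 20 leading contigs, on a log axis, by library. Circles are cells with 2 or more UMIs of dd_75, triangles cells without, and bars medians. The median of cells with dd_75 runs from 3.67% in the second 18 hpa anterior-facing library to 12.9% at 0 hpa, and that of cells without from 0.262% to 0.636%; at 6 hpa the circles spread from 0.173% to 11.7%.

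Lysosomal contigs were the listed group with the most members higher in selected cells. The lists were chosen with earlier results of these data known, and dd_1 of this list is also among the leading contigs above. The tallies of the lists are therefore a description. Human names below are those the study's annotation pairs with each contig, and roles are known from human proteins. Of 13 listed contigs 10 were tested, 6 were higher (the background was 12.1% of all contigs) and 1 was lower, with a median log2 fold change of 1.25 against -0.70 over all contigs. In cells with dd_75 alone 6 of 10 were higher and 1 lower, and in cells without it none of 9 was higher and 3 were lower. Among the 466 tested contigs that have a human name, 9.01% were higher and 30.5% lower.

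dd_1, which carries granulin domains (granulins are cysteine-rich peptides cut from a precursor that is handled in lysosomes), was at 2358, 2879, 1228, 1620 and 1078 CPM in the 5 libraries. Its empty-droplet level was 212, 200, 26.0, 19.9 and 60.5 CPM, and its log2 fold change was 6.44 ± 0.30 (SE; edgeR adjusted p = 4.16e-100). It was found in 62 of 84 cells with dd_75 and 2 of 42 without. dd_1 was thus a feature of the cells with dd_75.

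dd_1062, paired with GAA, the acid alpha-glucosidase that degrades glycogen in lysosomes, had 40, 26, 9, 3 and 12 UMIs, or 343, 167, 67.0, 39.2 and 114 CPM. Empty droplets had 58.4, 10.5, 2.54, 0 and 3.44 CPM and other cells 13.9, 21.5, 3.04, 2.43 and 2.57 CPM. The log2 fold change was 4.47 ± 0.35 (SE; edgeR adjusted p = 3.31e-35). The acid phosphatase contig dd_1053 (ACP7) was higher by 3.58 ± 0.49, and dd_1008, with a ribonuclease T2 domain that marks acid ribonucleases, by 2.57 ± 0.39 on the same scale (edgeR adjusted p = 4.05e-12 and 9.57e-10). All 21 cells with ACP7 and all 27 with dd_1008 had dd_75.

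GNPTG, a subunit of the enzyme that tags hydrolases for the lysosome, had 10 UMIs and a log2 fold change of 1.64, and PIP4P2, a phosphatase of lysosomal membrane lipids, had 37 UMIs and 0.87 (edgeR adjusted p = 0.0333 and 0.0337). The serine carboxypeptidase contig PRCP was the 1 lower member. It had no UMI in selected cells and 26.0 CPM in other cells, at least 5.10-fold lower against a floor of 3 counts over all selected cells. With no upper limit on genes its log2 fold change was 0.075, and the call was lost.

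Of 7 peptidase contigs 5 were tested, 3 were higher and 1, again PRCP, was lower, against 12.1% and 29.7% of all contigs, with a median of 1.40. Among cells with dd_75 alone 1 of 5 was higher and 1 lower, and among cells without it 3 and 1. The higher ones were LMLN (2.81 ± 0.68), PM20D2 (2.26 ± 0.36) and DNPEP (1.40 ± 0.35), a metalloprotease, a dipeptidase and an aspartyl aminopeptidase (log2 fold change ± SE; edgeR adjusted p = 2.29e-04, 5.72e-09 and 4.16e-04). LMLN rested on 11 UMIs, and 8 of its 10 cells lacked dd_75. TMPRSS3, a trypsin-like protease, had no UMI and was too low to test.

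Of 19 lipid handling contigs 15 were tested, 4 were higher and 4 lower, against 12.1% and 29.7% of all contigs, and the median was -0.45. ACSBG2, which activates fatty acids as acyl-CoA, was at 326, 522, 372, 679.4 and 353 CPM in the 5 libraries, against 94.8 to 136 CPM in other cells and 79.9, 56.3, 138, 107 and 92.9 CPM in empty droplets. The library sums of selected and other cells did not overlap, with a UMI in 73 of the 126 selected cells, and the log2 fold change was 2.17 ± 0.24 (SE; edgeR adjusted p = 5.54e-18). STRA6, the retinol uptake receptor, was higher by 5.82 ± 0.68 from 14 UMIs in 12 cells and ELOVL4, an elongase of very long fatty acids, by 1.80 ± 0.45 (edgeR adjusted p = 2.08e-16 and 4.36e-04). SLC10A2, a bile acid transporter in human, and FITM2, which helps lipid droplets form, were lower by log2 fold changes of -3.43 and -2.12 (edgeR adjusted p = 4.75e-05 and 1.53e-06).

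Of 16 contigs of sugar and amino acid metabolism 12 were tested, 3 were higher and 4 lower, with a median of 0.24. Over all contigs 12.1% were higher and 29.7% lower. SORD, sorbitol dehydrogenase, was higher by 3.36 ± 0.32, HAO1, a peroxisomal hydroxyacid oxidase, by 2.11 ± 0.83 from 6 UMIs, and AKR1A1, an aldehyde reductase, by 0.74 ± 0.26 (log2 fold change ± SE; edgeR adjusted p = 8.06e-25, 0.0294 and 0.0126). The lower ones included TAT and MAT2A, enzymes of tyrosine and methionine metabolism, with no UMI in selected cells. At 9.11 CPM of other cells TAT was at least 1.78-fold lower, but at a log2 fold change of 1.13 with no upper limit on genes.

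Of 17 membrane transporter contigs 9 were tested, 3 were higher and 1 lower, against 12.1% and 29.7% of all contigs, with a median of -0.18. SLC16A9, of the monocarboxylate transporter family, is paired with 2 contigs of the list, of which dd_10769, at a log2 fold change of -0.18, did not pass (edgeR adjusted p = 0.849). The other, dd_10656, was higher by 5.63 ± 0.58, SLC25A10, the mitochondrial dicarboxylate carrier, by 2.96 ± 0.70 and SLC37A2, a sugar-phosphate exchanger, by 2.39 ± 0.38 (log2 fold change ± SE; edgeR adjusted p = 2.17e-20, 1.65e-04 and 6.15e-09). MFSD6 had no UMI and was at least 3.90-fold lower.

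The small GTPase RAB32, which works in the formation of lysosome-related organelles and was singled out after its values were seen, was at 257, 155, 253, 523 and 162 CPM, with 45.6, 6.55, 48.2, 24.6 and 27.5 CPM in empty droplets. Its log2 fold change was 3.91 ± 0.27 (SE; edgeR adjusted p = 1.07e-46), higher in 5 of 5 libraries. It was found in 50 cells with dd_75 and 15 without.

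Secretory pathway contigs went the other way. All 10 were tested, 6 were lower and none was higher, against 29.7% of all contigs lower, and the median was -1.21. TMEM258, a subunit of the enzyme that adds sugars to proteins, was lower by a log2 fold change of -2.30 and STX5, a Golgi fusion protein, by -1.73 (edgeR adjusted p = 1.58e-06 and 1.10e-04). RAB2B had no UMI and was at least 2.00-fold lower. Of 13 stress and cell death contigs 12 were tested, 1 was higher and 2 were lower. The higher one was dd_10117, paired with the adaptor TRAF2, with 9 UMIs in 7 cells (edgeR adjusted p = 0.0428). It was higher in only 3 of 5 libraries. Another contig paired with TRAF2, dd_10569, was at a log2 fold change of -0.058 and did not pass (edgeR adjusted p = 0.954). Over all contigs 12.1% were higher and 29.7% lower, for this list and those that follow here. Of 9 ribosome and translation contigs tested RPL8 was higher, by 0.75 ± 0.25, and none was lower. Of 3 respiratory chain contigs tested UQCRC2 was higher, by 0.66 ± 0.28, and NDUFB3 lower, by -0.70 ± 0.26 (log2 fold change ± SE; edgeR adjusted p = 0.00825, 0.0441 and 0.0208). In cells with dd_75 alone RPL8 was at -0.72 and UQCRC2 at -0.10, and of the 9 ribosome and translation contigs none was higher and 3 were lower. The oxidation, secreted-lectin and ferritin lists had 7 contigs tested in all, of which 1 was lower, the cytochrome P450 contig CYP2S1, at least 2.94-fold, and none was higher. With no upper limit on genes the log2 fold change of CYP2S1 was 0.032, and the call was lost.

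Mitochondrial transcripts were higher in part: 4 of 8 contigs were higher, by log2 fold changes of 0.62 to 0.77, and none lower. Over all contigs 12.1% were higher and 29.7% lower. With cells holding 4 of the 5 contigs the same 4 were at -0.98 to -0.69. The median percentage of mitochondrial UMIs in selected cells was 6.43% at 0 hpa, 13.0% at 6 hpa, 12.4% and 17.4% in the 18 hpa anterior-facing libraries and 10.7% at the posterior-facing wound, against 9.29%, 10.9%, 9.14%, 11.5% and 9.75% in other cells. The mean difference was 1.90 ± 3.24 percentage points (SD, n = 5), above 0 in 4 of 5 libraries, and an exact two-sided sign-flip test gave p = 0.25. Cells with dd_75 alone were 2.74 points below the other cells, so the sign differed with the cells included.

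Genes per cell were compared after each cell was thinned to 1000 UMIs, which all cells reached. In selected cells the median number of genes was 498 at 0 hpa, 307.5 at 6 hpa, 498.5 and 445 in the 18 hpa anterior-facing libraries and 472 at the posterior-facing wound, against 590, 471, 586, 600 and 594 in other cells. Without thinning the medians were 658 to 1729.5 in selected and 744 to 1727 in other cells. The mean difference after thinning was -124 ± 34.9 genes (SD, n = 5), below 0 in 5 of 5 libraries, and the exact sign-flip test gave p = 0.0625, the smallest that 5 libraries allow.

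Markers of the epidermal lineage and of neoblasts, the planarian stem cells, were lower in selected cells. The epidermal lineage contigs dd_61, dd_332 and dd_920 summed to 34.3 to 183 CPM, against 6374 to 16007 in other cells and 2750 to 14255 in empty droplets. All 3 were lower, dd_61 by a log2 fold change of -7.07 ± 0.35 (SE; edgeR adjusted p = 1.78e-85). dd_659, the neoblast marker smedwi-1, had 3 UMIs, a ratio to other cells of 0.0149 (counting interval 0.00307 to 0.0435). Muscle contigs were lower in 2 of 4 tested, neuron contigs in 5 of 9 and cilium contigs in 7 of 11, against 29.7% of all contigs. Of the 2 lower muscle contigs, dd_1054 (HSPG2) was at a log2 fold change of -4.65, but higher at 1.32 with no upper limit on genes (edgeR adjusted p = 2.49e-15 and 0.00456). The sums of the muscle, neuron and cilium lists were 96.6 to 201, 26.1 to 120 and 6.44 to 78.4 CPM, against 314 to 568, 59.1 to 163 and 129 to 175 CPM in other cells, and 2 of 6, 6 of 11 and 11 of 15 of the listed contigs had no UMI in selected cells. In contrast to these, the glutamate receptor contig GRM3 of the neuron list was higher by 6.22 ± 0.55 from 31 UMIs, 21 of its 23 cells having dd_75 (edgeR adjusted p = 1.57e-27). The genes equinox and bmp4, the subject of the study, had no UMI in selected cells and together 3.63 to 17.3 CPM in other cells.

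The 5 contigs with the lowest fold, dd_5942, dd_3572, dd_3665, dd_1066 and dd_459, had no UMI in any selected cell. In other cells they were at 415, 268, 171, 171 and 160 CPM. Against the floor of 3 counts they were at least 81.4-fold, 52.4-fold, 33.6-fold, 33.4-fold and 31.4-fold lower.

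Among selected cells, levels per cell were compared within libraries over the 126 cells and 3276 contigs with 20 or more UMIs, as a description. The best partners of dd_75 were dd_44 (r = 0.919), dd_20 (r = 0.877) and dd_100 (r = 0.875). dd_194 followed dd_75 with r = 0.846 and dd_636 with r = 0.213. dd_1694 ran against dd_75, with r = -0.33, and its best partners were dd_2124 (r = 0.405), dd_1176 (r = 0.388) and dd_2482 (r = 0.341). The selection itself shapes these values, since each cell needed 3 of the contigs. dd_115, with 14 UMIs, was too rare to compare.

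For time and wound side each group had 1 library, except the 18 hpa anterior-facing wound, so no test was run and contigs are given by size: 2-fold on CPM with 10 added, with 20 CPM or more in 1 of the libraries. Between the 2 anterior-facing 18 hpa replicates, 2126 of 6454 contigs (32.9%) were past 2-fold in either direction. These replicates, of 26 and 21 selected cells, also differed by the unc-22 RNAi.

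At 6 hpa most contigs past 2-fold from 0 hpa were lower, except in a setting that left 1 cell at 0 hpa. Of 5305 contigs 165 (3.11%) were past 2-fold higher and 2747 (51.8%) lower, or 54.9% in either direction. In cells with dd_75 alone 546 of 4725 contigs were past 2-fold higher and 2248 lower. In the 21 cells with 4 of the 5 contigs, of which 1 was at 0 hpa, 2930 contigs were higher and 1415 lower. Of the 359 lower contigs with 20 or more UMIs at 0 hpa, 247 were past 2-fold lower in the empty droplets too and 45 in the other cells. Over all contigs 3829 were past 2-fold in the empty droplets and 1077 in the other cells, so the overlap is a description. The 6 hpa library also differed by its sort, its lower number of genes per cell and its share of cells with dd_75, and their part was not tested.

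Among the higher contigs at 6 hpa, dd_983 had 12 UMIs at 0 hpa and 57 at 6 hpa, or 103 CPM (exact 95% Poisson interval 53.2 to 180) and 367 CPM (278 to 476). Empty droplets had 11.2 and 17.0 CPM. The 18 hpa libraries had 81.9, 222 and 66.8 CPM, so 6 hpa was highest and the second anterior-facing replicate next. In cells with dd_75 alone the values were 238 and 381 CPM, which is under 2-fold.

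dd_1297 and dd_1585 each had 9 UMIs at 0 hpa and 42 at 6 hpa, or 77.2 and 270 CPM. In empty droplets dd_1297 was at 32.8 and 10.5 CPM and dd_1585 at 29.6 and 19.7. dd_14, with the largest fold, had 1 and 26 UMIs, or 8.57 and 167 CPM, in 10 cells at 6 hpa, while empty droplets had 56.8 and 22.3 CPM. With dd_75 alone dd_1297 was at 159 and 281 CPM and dd_1585 at 139 and 281, each under 2-fold with 10 CPM added, and dd_14 at 19.8 and 167 CPM. dd_4290 had 21 UMIs in 13 cells at 6 hpa. dd_422 had 33 UMIs and dd_8447 23 UMIs at 6 hpa, each in only 2 cells.

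dd_7 was the most abundant contig of the 6 hpa set, with 31248 CPM at 0 hpa and 158830 at 6 hpa, and 38969, 57488 and 38552 CPM in the 18 hpa libraries. It took 15.9% of the UMIs of selected cells at 6 hpa, 10.8% in other cells and 32.9% in empty droplets. It was past 2-fold higher in all 3. SORD had 11 and 46 UMIs, or 94.3 and 296 CPM, with 30.4 and 18.3 CPM in empty droplets. Taking only cells with dd_75, dd_7 was at 32294.5 and 155368 CPM and SORD at 99.1 and 308 CPM.

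The lowest contigs at 6 hpa were mostly low in the empty droplets as well. dd_3257 stood at 1569 CPM at 0 hpa and 148 at 6 hpa (intervals 1350 to 1813 and 93.9 to 222), then at 1392, 3711 and 1040 CPM in the 18 hpa libraries. Its empty-droplet level was 1463, 78.6, 1278, 795 and 1116 CPM. With dd_75 alone dd_3257 was at 2458 and 154 CPM at 0 and 6 hpa. For dd_3257 low values at 6 hpa thus appeared in cells and in empty droplets alike. dd_7731, dd_12410, dd_1580 and dd_1543 had the same pattern and were past 2-fold lower in other cells too. dd_3955 was past 2-fold lower in empty droplets but not in other cells. dd_1755 and dd_900 were past 2-fold lower in neither background, with 21 and 37 UMIs at 0 hpa.

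Ribosomal contigs were among the lower ones at 6 hpa in all selected cells. RPL8 was at 2820 CPM at 0 hpa and 811 at 6 hpa, with 1504 and 829 CPM in empty droplets, and 6 of 7 ribosome and translation contigs that reached 20 CPM were past 2-fold lower, where 51.8% of all contigs were. With dd_75 alone RPL8 went the other way, from 396 to 769 CPM. Over all libraries its level was 1074 CPM with dd_75 and 4404 without. Of 8 mitochondrial contigs 5 were past 2-fold higher and none lower. Lysosomal contigs were past 2-fold higher for PIP4P2, from 2 to 13 UMIs, and GNPTG, from 1 to 5 UMIs, and lower for none of 7. Over all contigs 3.11% were past 2-fold higher and 51.8% lower.

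All 3 libraries at 18 hpa differed from 0 hpa in the same direction by 2-fold for 198 contigs higher (2.74% of 7223) and 221 lower (3.06%), or 5.80% together. Few had many UMIs: 41 of the higher ones had 20 or more over the 18 hpa libraries and 18 of the lower ones had 20 or more at 0 hpa. In the other cells none of them was past 2-fold, and in the empty droplets 1 of the higher and 3 of the lower ones were. Over all contigs only 23 in other cells and 67 in empty droplets were past 2-fold. Their sums are larger, so this is no test of specificity.

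Lower contigs at 18 hpa included lysosomal ones. GAA was at 343 CPM at 0 hpa (interval 245 to 467), then at 67.0 (30.6 to 127), 39.2 (8.08 to 114.5) and 114 (59.1 to 200) CPM. The intervals at 18 hpa did not reach that at 0 hpa. The empty-droplet level of GAA, 58.4 CPM at 0 hpa and at most 3.44 at 18 hpa, was past 2-fold lower as well. In cells with dd_75 alone GAA was at 753 CPM at 0 hpa and 118, 80.4 and 259 CPM at 18 hpa. dd_1008, the ribonuclease T2 contig, had 17 UMIs at 0 hpa and 4, 2 and 5 at 18 hpa. PIP4P2 went the other way, from 17.1 CPM (2 UMIs) at 0 hpa to 57.2 to 78.4 CPM (6 to 10 UMIs). Empty droplets had 40.0 CPM at 0 hpa and 46.1 to 47.6 at 18 hpa. With so few UMIs the cells cannot be placed below or above free RNA. The other lysosomal contigs that reached 20 CPM were not past 2-fold in all 3 libraries.

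dd_388 had 207 UMIs at 0 hpa and 68, 59 and 55 at 18 hpa, or 1775 CPM (1541 to 2034) and 506, 771 and 525 CPM. Its empty-droplet level was 96.7 CPM at 0 hpa and 18.7 to 55.9 at 18 hpa. One cell held 58 of the 207 UMIs and another 32 of the 68 in the first anterior-facing library. HSPB1, a small heat shock protein, was at 926 CPM at 0 hpa (760 to 1118), 135 at 6 hpa and 275, 274 and 372 at 18 hpa. In empty droplets HSPB1 was at 628, 81.2, 463, 391 and 741 CPM, so selected cells lay above them at 0 hpa and below them in each library at 18 hpa. A single cell held 66 of the 108 UMIs of HSPB1 at 0 hpa, so its level above empty droplets there and its fall by 18 hpa rest largely on that cell. dd_2483 was at 549 CPM at 0 hpa and 149, 105 and 124 at 18 hpa, with 146.5 to 263 CPM in the empty droplets of these libraries. With dd_75 alone dd_388 went from 4104 to between 1000.1 and 1585 CPM, HSPB1 from 1903 to between 397 and 576 and dd_2483 from 1149.8 to between 107 and 346. The remaining lower contigs, dd_4668, dd_817_1, dd_1738 and dd_608, had 24 to 51 UMIs at 0 hpa, in 5 to 17 cells.

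Higher contigs at 18 hpa were weaker. dd_5161 was at 42.9 CPM at 0 hpa (13.9 to 100) and 246, 209 and 162 CPM at 18 hpa, in 20 cells. Its empty-droplet level was 23.2 CPM at 0 hpa and 59.2 to 117 at 18 hpa, past 2-fold as well. In cells with dd_75 alone it had no UMI at the posterior-facing wound. dd_102 went from 1 UMI to 25, 4 and 12, or from 8.57 to 186, 52.3 and 114 CPM, with 50.4 CPM and then 104 to 119 CPM in empty droplets. The other 6 contigs, dd_6520, dd_2954, dd_8540, dd_1788, dd_8586 and dd_1672, had 22 to 43 UMIs over the 3 libraries, and their smallest log2 folds were 1.48 to 2.05. Over all libraries dd_8540 was at 54.5 CPM in selected cells against 373 in empty droplets, and dd_1788, dd_2954, dd_1672 and dd_6520 also lay below the empty-droplet level, while dd_8586 lay above it at 98.7 against 76.4 CPM. With dd_75 alone 4 of the 16 contigs named at 18 hpa were no longer past 2-fold, among them dd_8540, dd_1788 and dd_8586. A further 1, dd_5161, changed sign in those cells.

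**Figure D5:**
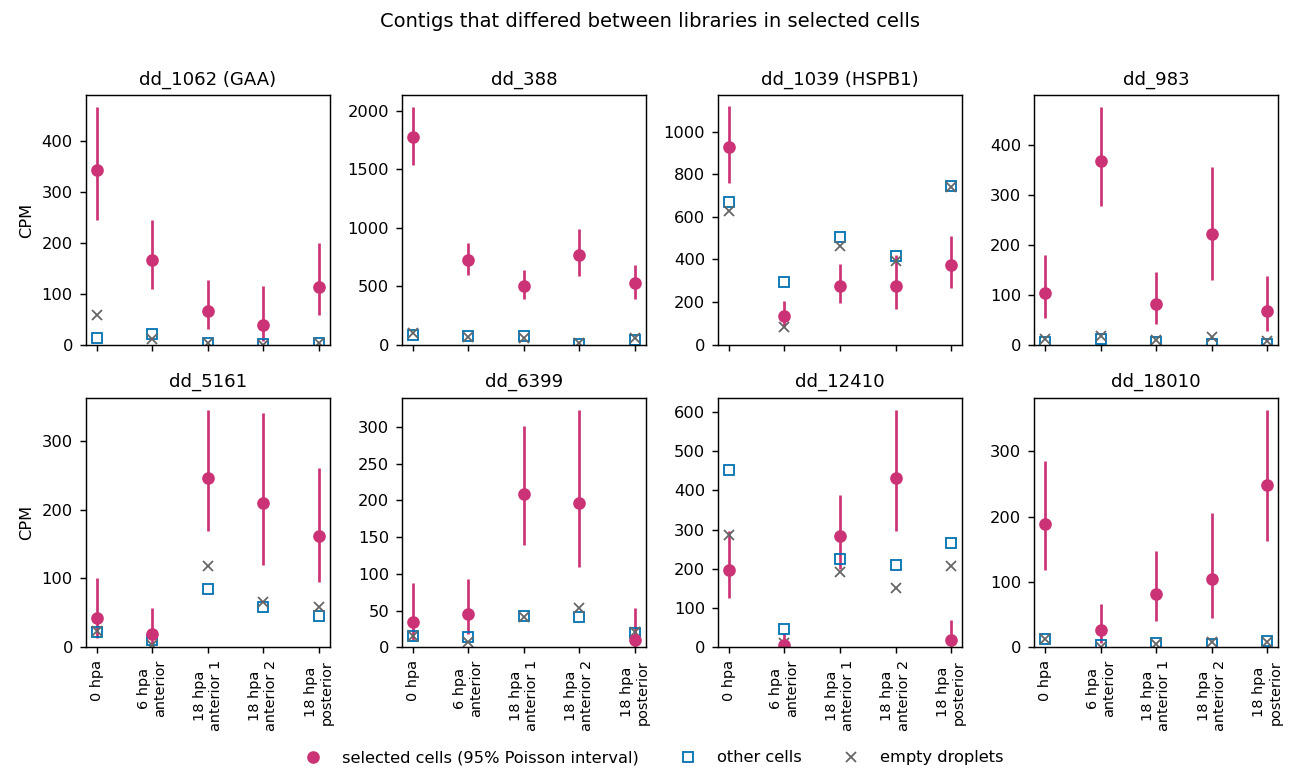
CPM of 8 contigs in the 5 libraries, on linear axes from 0. Circles are selected cells with exact 95% Poisson intervals, squares other cells and crosses empty droplets. GAA and dd_388 are highest at 0 hpa (343 and 1775 CPM), dd_983 at 6 hpa (367), dd_6399 in both 18 hpa anterior-facing libraries (208 and 196 against 9.54 at the posterior-facing wound), and dd_18010 at the posterior-facing wound (248).

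The wound sides were compared at 18 hpa, where both anterior-facing libraries had to differ from the posterior-facing one. Of 6826 contigs 572 (8.38%) were past 2-fold higher at anterior-facing wounds and 290 (4.25%) lower. Of these, 75 and 13 had 20 or more UMIs on the higher side, and none of those was past 2-fold in other cells or empty droplets. Over all contigs only 37 in other cells and 40 in empty droplets were past 2-fold. Their sums are larger, so this absence is no test of specificity. In either direction 12.6% of contigs were past 2-fold. With only the first or only the second anterior-facing replicate, 1689 of 6106 and 2107 of 6020 contigs were past 2-fold. Between the 2 replicates 2126 of 6454 were.

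dd_6399 had 28 UMIs in the first anterior-facing library, 15 in the second and 1 at the posterior-facing wound. Its levels were 208 CPM (139 to 301), 196 CPM (110 to 323) and 9.54 CPM (0.241 to 53.1), and the empty droplets had 40.6, 53.2 and 20.6 CPM. In cells with dd_75 alone the levels were 235, 134 and 28.8 CPM. Over all selected cells both replicates lay above the posterior-facing library with intervals apart.

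dd_12410 was at 283, 431 and 19.1 CPM in the same order (38, 33 and 2 UMIs), with 192, 151 and 207 CPM in empty droplets. With dd_75 alone it was at 441, 617 and 28.8 CPM. At 6 hpa it had 1 UMI. At the posterior-facing wound and at 6 hpa its level was thus under the empty-droplet level or near it. dd_730 was at 119, 170 and 19.1 CPM, with 229, 282 and 217 CPM in empty droplets, and was below them in all 3 libraries. dd_1381, dd_5209, dd_15647, dd_1216 and dd_3108 had 24 to 30 UMIs over the anterior-facing libraries, those of dd_15647 in 4 cells.

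Contigs higher at the posterior-facing wound were fewer and smaller. dd_18010 was at 81.9, 105 and 248 CPM (11, 8 and 26 UMIs), with at most 8.26 CPM in the empty droplets of these libraries. It was also at 189 CPM at 0 hpa and at 25.8 at 6 hpa, so the anterior-facing libraries lay between 6 hpa and 0 hpa. With dd_75 alone it was at 73.5, 107 and 202 CPM, no longer past 2-fold in both replicates. dd_2582_1 was at 22.3, 144 and 391 CPM, its 41 UMIs at the posterior-facing wound lying in 7 cells. dd_1153 was at 164, 157 and 382 CPM, with 138, 139 and 139 CPM in empty droplets, so only the posterior-facing library stood clear of them. dd_479, dd_1811, dd_1473, dd_1750 and dd_1068 had 21 to 29 UMIs there, in 6 to 11 cells. Of the listed contigs, SORD was at 81.9, 78.4 and 181 CPM and AKR1A1, past 2-fold in the other direction, had 25, 17 and 8 UMIs, or 186, 222 and 76.3 CPM, with 119, 162 and 151 CPM in empty droplets.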

How the data were processed

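Cells of 5 libraries were captured with 10x v3 chemistry, and the submitters' processing notes name CASAVA 1.9, Cell Ranger and Seurat. The deposited matrices (Cell Ranger 4 per the file headers) hold raw UMI counts for 28040 contigs per barcode, made by the authors and not normalized. Total UMIs per library were 21746895 to 37981205. The study's own cell filters, of 200 to 2500 genes, were used with 1000 or more UMIs. Members and gene lists were chosen with earlier results of these data known, and the lists cover only the annotated contigs that could be read (466 contigs with a human name were tested).

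UMI counts were summed per library over selected and other cells and compared with edgeR 4.0.16 (trimmed-mean scaling, filterByExpr, quasi-likelihood test, a block for the library, p-values adjusted by Benjamini-Hochberg over every contig fitted, without the 5 of the rule), with DESeq2 1.42.0 as an alternative, in R 4.3.3. The block stands because both sums of a pair come from the same library. The script was tested on simulated data. Each library is 1 pool of animals, so p-values measure the spread between these 5 libraries. Time and side were compared by fold only. Intervals (95%, exact Poisson for sums and exact binomial for shares) and floors (3 counts) cover counting error only. Doublets were sought with Scrublet (scanpy 1.11.5), which marked 74 cells (0.309%) and no selected cell. This rate is too low for the caller to have worked, so no cell was removed.

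Contigs named are the 5 of the rule, the 20 highest and 5 lowest against other cells (changed the same way in 5 of 5 libraries, 20 or more UMIs in the higher class of each), the 8 largest smallest folds in each direction for each of 6 hpa, 18 hpa and wound side with 20 or more UMIs on the higher side, up to 4 of each list with the largest absolute log2 fold change, further list members past the threshold (1 of them is not reported here), the 3 best partners of the 3 given markers, and dd_659, equinox and bmp4. Alternatives were other scalings and filters, leaving out each library, stricter rules, other pseudocounts and minimum levels, subtraction of the empty-droplet profile, and, chosen after seeing the data, cells with or without dd_75 alone, no upper limit on genes, and empty droplets of 100 to 300 UMIs.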

Additional observations from a re-analysis of the deposited data

Results flagged for a closer look

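The mitochondrial percentage of selected cells lay 2.85 percentage points below that of other cells at 0 hpa (a difference of -2.85) and above it in every other library, by 0.929 to 5.95 points. The difference between the groups was not tested.

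RPL8 was lower in selected than in other cells at 6 hpa, at a log2 ratio of -1.32, and higher in the other 4 libraries, at 0.71 to 1.23. UQCRC2, a subunit of a respiratory chain complex, was at -0.075 at 6 hpa (a log2 ratio) and at 0.24 to 0.82 elsewhere. Neither difference was tested, and 32 of the 34 cells at 6 hpa had dd_75.

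Outside the cells described, 87 of 4906 barcodes with more than 2500 genes met the rule on contigs (1.77%, exact 95% interval 1.42% to 2.18%, against 0.526% of the qualifying cells). They held a median of 14021 UMIs, 36 had dd_75, and the 5 contigs took a median of 0.251% of their UMIs.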

How the results depend on the processing

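The number of selected cells, 126, became 77 with 3 or more UMIs of each contig, 327 with 1 or more, 21 with 4 of 5 contigs, 213 with no upper limit on genes and 108 with 2000 or more UMIs. Against other cells, 1366 contigs higher and 3339 lower became 1232 and 2516 by DESeq2, 1347 and 3465 with RLE size factors and 1280 and 3552 with no filter. Without the replicate block, in which each library pairs its own selected and other cells, they were 1360 and 3260. Higher calls were 437 with 4 of 5 contigs and 524 without dd_75, and lower calls 1556 with no upper limit on genes. Leaving out each library gave 1187 to 1298 higher and 2073 to 3116 lower calls, the fewest lower ones without 0 hpa. Higher calls were 29.0% of all calls, 50.7% with no upper limit on genes, 16.2% with 4 of 5 contigs and 18.9% without dd_75.

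Of named contigs against other cells, 1394 values kept direction and side of the threshold over the alternatives, 140 no longer passed, 12 newly passed and 19 changed sign. Log2 fold changes without dd_75 were -9.43 for dd_267, -1.73 for dd_100, -1.53 for dd_1, -3.02 for dd_48, -1.37 for dd_324 and -9.84 for dd_1008; dd_267 and dd_1008 have no UMI in those cells, so their size is set by the prior count. With no upper limit on genes they were 1.32 for dd_1054 (HSPG2, of the muscle list), 0.30 for dd_1060, 0.032 for dd_10722 (CYP2S1), 1.13 for dd_1073 (TAT) and 0.075 for dd_10813 (PRCP). With 4 of 5 contigs they were -1.68 for RPL8, -0.32 for UQCRC2, and -0.98, -0.98, -0.79 and -0.69 for the mitochondrial dd_292, dd_297, dd_344 and dd_753. With dd_75 alone they were -0.72 for RPL8 and -0.10 for UQCRC2. The mitochondrial difference was -2.35 percentage points with 4 of 5 contigs and -2.74 with dd_75 alone, and 0.884 to 3.08 leaving out a library. The difference in genes kept its direction, at -133 to -114 leaving out a library.

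Contigs past 2-fold at 6 hpa, 2912, were 769 with 50 CPM added and 1620 with a minimum of 50 CPM. With 4 of 5 contigs, 1 cell was left at 0 hpa and the count was 4345. The direction turned there, with 2930 higher and 1415 lower against 165 and 2747. With dd_75 alone the count was 2794, with 546 higher and 2248 lower. At 18 hpa 419 became 764 with 1 CPM added, 24 with 50 CPM added, 220 with a minimum of 50 CPM, 1408 with 4 of 5 contigs and 993 with dd_75 alone, and 697 and 799 without either anterior-facing replicate. For wound side 862 became 1369, 61, 424, 2608 and 2393 under the same settings, and 1689 to 2107 without a replicate. Signs turned for dd_8586 (-0.34) and dd_817_1 (4.53) with 4 of 5 contigs and for dd_5161 (-1.58) with dd_75 alone. Where no value shows it, the cause was not tested. With 21 to 34 cells and 1 library per time, differences within the intervals were not detectable at this depth.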
